A study of Mus musculus with 6 samples.

Results

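The genes of the mitochondrial ribosome were examined in B16 cells, an established mouse melanoma line, kept in low oxygen or in normoxia. They were taken as all probe sets annotated to a single gene whose symbol begins with Mrpl or Mrps and a number, with the brightest probe set standing for each gene. The rule found 74 genes on 127 probe sets, among 12393 genes on 22690 probe sets in all. A further 3 probe sets of the family name several genes and were left out. All 74 genes passed the filter on dim probe sets, which left 7746 genes of the whole array.

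Mitochondria carry their own ribosome, which translates the few membrane proteins of the respiratory chain and ATP synthase that mitochondrial DNA encodes. Its RNA is mitochondrial, whereas all of its proteins are encoded in the nucleus, made in the cytosol and imported. The large subunit joins amino acids and feeds the new chain to the inner membrane, and the small subunit decodes the messenger RNA. Melanoma cells, like most tumour cells, draw on both glycolysis and respiration, and lack of oxygen is best known for raising glycolytic genes through the HIF factors.

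RNA was hybridised to 6 Affymetrix arrays, 1 per group, after cells grown with 10% serum had spent 2 h without serum. In chronic hypoxia the cells had 3 h under 1% oxygen, and in cyclic hypoxia 3 periods of 1 h under 1% oxygen with 30 min of reoxygenation between them, against 3 h in normoxia. Each regime was collected at the end and again after 1 h more, which was reoxygenation for both hypoxic regimes. All groups shared the serum withdrawal, and the labels do not say whether normoxia lasted as long as the cyclic regime with its pauses. Nothing in the labels says that arrays came from separate cultures, so p-values measure the spread between these arrays only, and their number limits the precision.

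Each array had the same scale, with a trimmed mean of 100 units and a median signal of 15.9 to 19.3 units. The array of cyclic hypoxia with reoxygenation stood apart, with a mean correlation of 0.940 with the other arrays, against 0.962 to 0.967 for the rest. Melanocyte markers were bright (summed signal 17658 to 23299 units over 6 measured genes), while the summed markers of fibroblasts (16.4 to 32.3 units), immune cells (14.2 to 29.7), endothelium (2.64 to 16.0) and keratinocytes (12 to 20.2) were near background. The glycolytic enzyme gene Hk2, a known HIF target, was at 1279 units in chronic and 534 in cyclic hypoxia, against 165 in normoxia. At 1 h later it was at 885 and 405 units, against 164 in normoxia, and its log2 change in mean hypoxia was 2.10 (SE 0.17, adjusted p = 0.0207, limma over 13556 probe sets).

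Of the 74 genes, 65 had a promoter sequence in RefSeq (mouse build GRCm38.p6), taken from 250 bases before to 50 bases after the transcript start. The binding letters of NRF1 and of ETS factors such as GABP, both known regulators of nuclear genes for mitochondrial proteins, were searched on both strands. The NRF1 palindrome stood in 12 of the 65 promoters (18.5%), against 13.2% of 6408 genes past the filter with a promoter. The ETS letters CCGGAAG stood in 24 (36.9%), against 22.5%, and at least 1 of these motifs in 32 (49.2%), against 32.5%. Before the start alone, 9 (13.8%) held the NRF1 letters, against 10.7%, and 16 (24.6%) the ETS letters, against 17.6%. The YY1 letters AANATGGC stood in 20 (30.8%), against 11.0%, but only 6 (9.23%) held them before the start, against 5.65%, and the letters ATGGC can also be a start codon. The core letters of the HIF site, ACGTG or GCGTG, stood in 43 (66.2%), against 70.7%. The E-box CACGTG, which contains ACGTG, stood in 5 (7.69%), against 12.5%. The median GC content was 58.0% in the members' windows and 61.3% in those of the comparison genes.

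The 250 bases before the start are shown for 4 genes described below, with the NRF1 and ETS letters in capitals. Mrpl45, at chr11:97315466-97315715 (plus strand), had the NRF1 letters at 3 places in its window, of which 2 lie in the stretch printed, and Mrpl12, at chr11:120484387-120484636 (plus strand), had them at 1. Mrpl18, at chr17:12916092-12916341 (minus strand), and Mrpl51, at chr6:125191950-125192199 (plus strand), each had the ETS letters at 1. A match describes the letters and does not show that a factor binds there.
Mrpl45: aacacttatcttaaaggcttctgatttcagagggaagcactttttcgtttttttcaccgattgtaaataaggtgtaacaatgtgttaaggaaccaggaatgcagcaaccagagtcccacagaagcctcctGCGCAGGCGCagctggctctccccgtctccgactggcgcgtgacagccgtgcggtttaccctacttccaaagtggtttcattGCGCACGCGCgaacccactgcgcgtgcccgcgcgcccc
Mrpl12: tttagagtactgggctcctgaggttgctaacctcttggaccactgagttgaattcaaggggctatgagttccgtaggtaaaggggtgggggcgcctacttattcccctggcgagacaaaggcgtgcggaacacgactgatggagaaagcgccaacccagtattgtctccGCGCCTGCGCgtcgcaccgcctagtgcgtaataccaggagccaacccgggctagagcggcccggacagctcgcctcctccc
Mrpl18: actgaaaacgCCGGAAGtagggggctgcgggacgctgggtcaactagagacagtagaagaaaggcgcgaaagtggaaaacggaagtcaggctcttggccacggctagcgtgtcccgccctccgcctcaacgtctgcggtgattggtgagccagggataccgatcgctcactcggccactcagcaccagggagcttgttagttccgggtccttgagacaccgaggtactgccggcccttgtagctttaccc
Mrpl51: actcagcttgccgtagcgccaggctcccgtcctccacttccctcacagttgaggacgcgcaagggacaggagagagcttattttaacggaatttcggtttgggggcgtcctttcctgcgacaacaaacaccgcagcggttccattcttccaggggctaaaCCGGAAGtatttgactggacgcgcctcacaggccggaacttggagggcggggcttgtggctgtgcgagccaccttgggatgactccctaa

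The ribosomal protein genes were well above background on every array. Their median signal over the 6 arrays was 290 units, against 27.4 for all genes, 67 of the 74 averaged 100 units or more, and none was at the floor of 2.10 units on any array. The signals of the 74 genes summed to 26103 units in chronic and 24575 in cyclic hypoxia, against 26351 in normoxia, at the end of the exposure. After 1 h more they summed to 24871 units in chronic and 29775 in cyclic hypoxia, against 27914 in normoxia. Of the 6 sums, that of cyclic hypoxia was the lowest at the end and the highest after reoxygenation. The labels give 5 ug of total RNA for every array, and the arrays have the same scale, so the sums do not measure the number of cells. In bulk RNA, fewer cells holding a transcript and less of it per cell cannot be told apart. With 1 array per group none of these differences has an error of its own.

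The family varied little. From the lowest to the highest array the signal of a gene spanned a median of 0.50 on the log2 scale, against 0.56 for the 3573 genes of 100 units or more. The span was under 1, less than a 2-fold range, for 71 of 74 members (95.9%), against 69.0% of all genes past the filter. Among genes of 100 units or more the shares were 98.5% of members and 84.4% of all. Those 3 members with a wider span were Mrpl33 (1.71), Mrpl1 (1.43) and Mrpl47 (1.18).

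**Figure D1:**
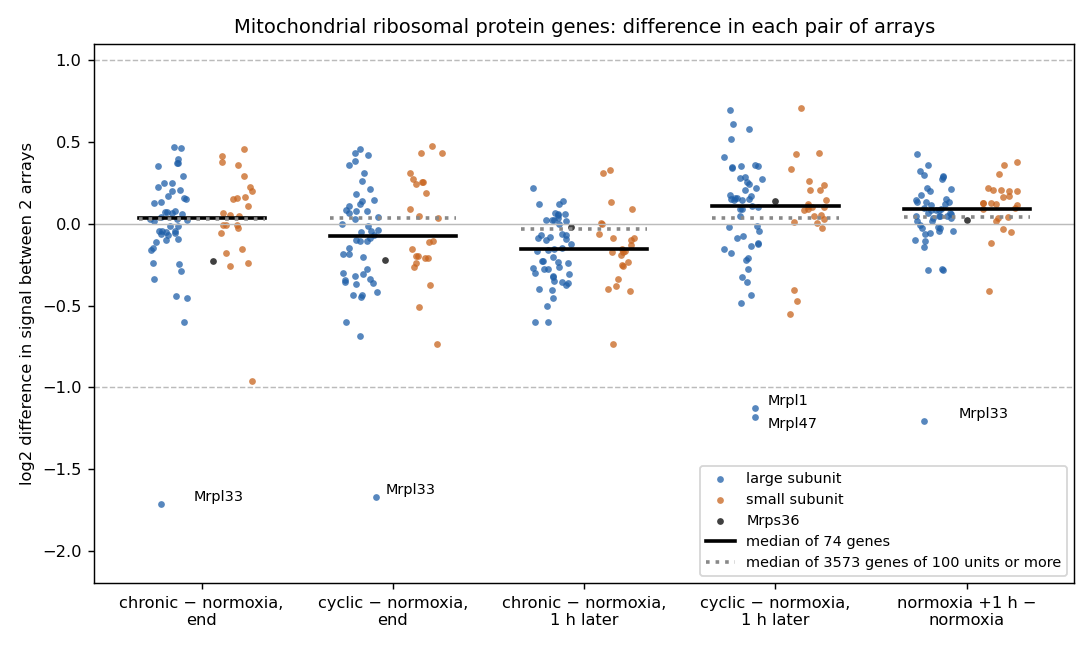
Each point is the log2 difference in signal between 2 arrays for 1 of 74 mitochondrial ribosomal protein genes, in 5 pairs of arrays, with the median of the 74 (black) and of 3573 genes of 100 units or more (dotted). Most points lie within 0.5 of 0 and only Mrpl33, Mrpl1 and Mrpl47 pass the dashed lines of a 2-fold difference.

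At the end of the exposure the median difference of the 74 genes was 0.04 in chronic and -0.08 in cyclic hypoxia, each against the same normoxia array, where genes of 100 units or more had medians of 0.03 and 0.04. In chronic hypoxia 41 of the 74 were above normoxia, and in cyclic hypoxia 32, where the medians of all genes were 0.0042 and -0.030. After 1 h more the medians were -0.16 in chronic and 0.11 in cyclic hypoxia, against -0.03 and 0.03 for genes of 100 units or more, again with a shared normoxia array. Of the 74, 19 were then above normoxia in chronic hypoxia, and 51 in cyclic hypoxia, where the medians of all genes were -0.00047 and 0.0044. With each array centred on its median, 62 were above in cyclic hypoxia, with a median of 0.30, and all genes then had a median of 0.19. Without centring 50 of 74 lay above the median of all genes in that pair of arrays, a count that centring could not change. Under quantile normalization 48 did.

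Few members were 2-fold or more from normoxia. In chronic hypoxia at the end 1 member was 2-fold lower and 0 were higher, where 2.36% of all genes were lower and 2.53% higher. In cyclic hypoxia at the end 1 was lower and 0 higher, where 5.44% of all genes were lower and 2.12% higher. Mrpl33 was the member in both, and of genes of 100 units or more 0.392% were 2-fold lower in the chronic and 1.46% in the cyclic pair. With reoxygenation 0 members were 2-fold lower or higher in chronic hypoxia, where 1.12% of all genes were lower and 2.98% higher. In cyclic hypoxia 2 members, Mrpl47 and Mrpl1, were lower and 0 higher, where 10.6% of all genes were lower and 3.56% higher. Of genes of 100 units or more, 7.61% were 2-fold lower in that pair of arrays, and 0 of the 67 members of that brightness.

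In the fit of all 6 arrays, in which the collections stood in for replicates, 0 of the 74 genes passed an adjusted p under 0.05 in mean hypoxia, the average of the chronic and cyclic effects (limma, two-sided), where 0.0148% of 13556 probe sets passed. The median of the members was -0.04 with 30 of 74 above 0, and with median centring it was 0.0081 with 40 above 0, so the family had no settled direction. The lowest adjusted p among members was 0.458, and at an unadjusted p under 0.05 there were 0 higher and 2 lower. Against normoxia 0 passed in chronic hypoxia (0.0959% of probe sets, lowest adjusted p 0.797) and 0 in cyclic hypoxia (0% of probe sets, lowest adjusted p 0.185), with 1 and 4 members lower at an unadjusted p under 0.05. Between cyclic and chronic hypoxia 0 passed (0% of probe sets, lowest adjusted p 0.230), with 1 higher and 4 lower at an unadjusted p under 0.05. Between the collections 0 passed (0% of probe sets, lowest adjusted p 0.989), and 0 reached an unadjusted p under 0.05. With the effect of hypoxia fitted at each collection, 0 passed at the end and 0 with the last hour added (0% of probe sets in each). In that fit only Mrpl33 at the end was under 0.05 without adjustment. The counts of members at an unadjusted p have no share of all probe sets beside them, so they are not read as a result about the family.

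The subunits differed little. The large subunit counted 49 genes, with Mrps30 and Mrps18a, which carry small-subunit names but sit in the large subunit, and the small subunit 24. Mrps36, now known as a part of a mitochondrial dehydrogenase, was assigned to neither. Median differences at the end were 0.03 for large-subunit and 0.06 for small-subunit genes in chronic hypoxia, and -0.07 and -0.04 in cyclic hypoxia. After the last hour they were -0.16 for both subunits in chronic hypoxia, and 0.14 and 0.10 in cyclic hypoxia. Within the large subunit, the 29 genes with bacterial homologues and the 20 without had medians of -0.07 and -0.06 in cyclic hypoxia at the end, and of 0.11 and 0.15 after the last hour. Within the small subunit, the 15 with homologues and the 9 without had -0.11 and 0.19 at the end, and 0.10 and 0.20 later. At the exit tunnel, where the new chain leaves, 7 genes had medians of -0.28 in cyclic hypoxia at the end and -0.12 an hour later. At the central protuberance, the crown of the large subunit, the medians of 9 genes in these arrays were -0.04 and 0.16, and the 3 stalk genes, which recruit translation factors, had -0.07 and 0.14. These groups are small and were given no test. For the groups within the subunits only cyclic medians are given, so none is shown to be particular to cyclic hypoxia.

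Mrpl33, homologue of the bacterial large-subunit protein L33, had the widest span. Its signal was 128 units in chronic and 132 in cyclic hypoxia, against 419 in normoxia. After 1 h more it was 185 units in chronic and 241 in cyclic hypoxia, against 182 in normoxia. The first normoxia array alone was high, and the second lay within the range of the hypoxia arrays. The log2 differences were -1.71 and -1.67 at the end, and 0.02 and 0.41 after the last hour. Between the normoxia arrays themselves, the second minus the first, the difference was -1.20, the lowest of the 3573 genes of 100 units or more. It was the 1 member 2-fold lower in that pair, where 1.87% of all genes and 0.0280% of those of 100 units or more were lower, and 0 members were higher, where 0.865% of all genes were. Its difference in chronic hypoxia at the end was also the lowest of these genes, and that in cyclic hypoxia the 3rd lowest. In mean hypoxia the log2 change was -0.74 (SE 0.38, adjusted p = 0.625), and without the first normoxia array it was 0.22. At the end of the exposure the change was -1.69 (SE 0.31, unadjusted p = 0.00108, adjusted p = 1.00), and it rests on that single normoxia array. Of 113 probe sets of the family past the filter, that of Mrpl33 was the only one with the first normoxia array above all others by 0.5 or more (0.885%), against 144 of 13556 probe sets (1.06%). Its other probe set was too dim to use.

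**Figure D2:**
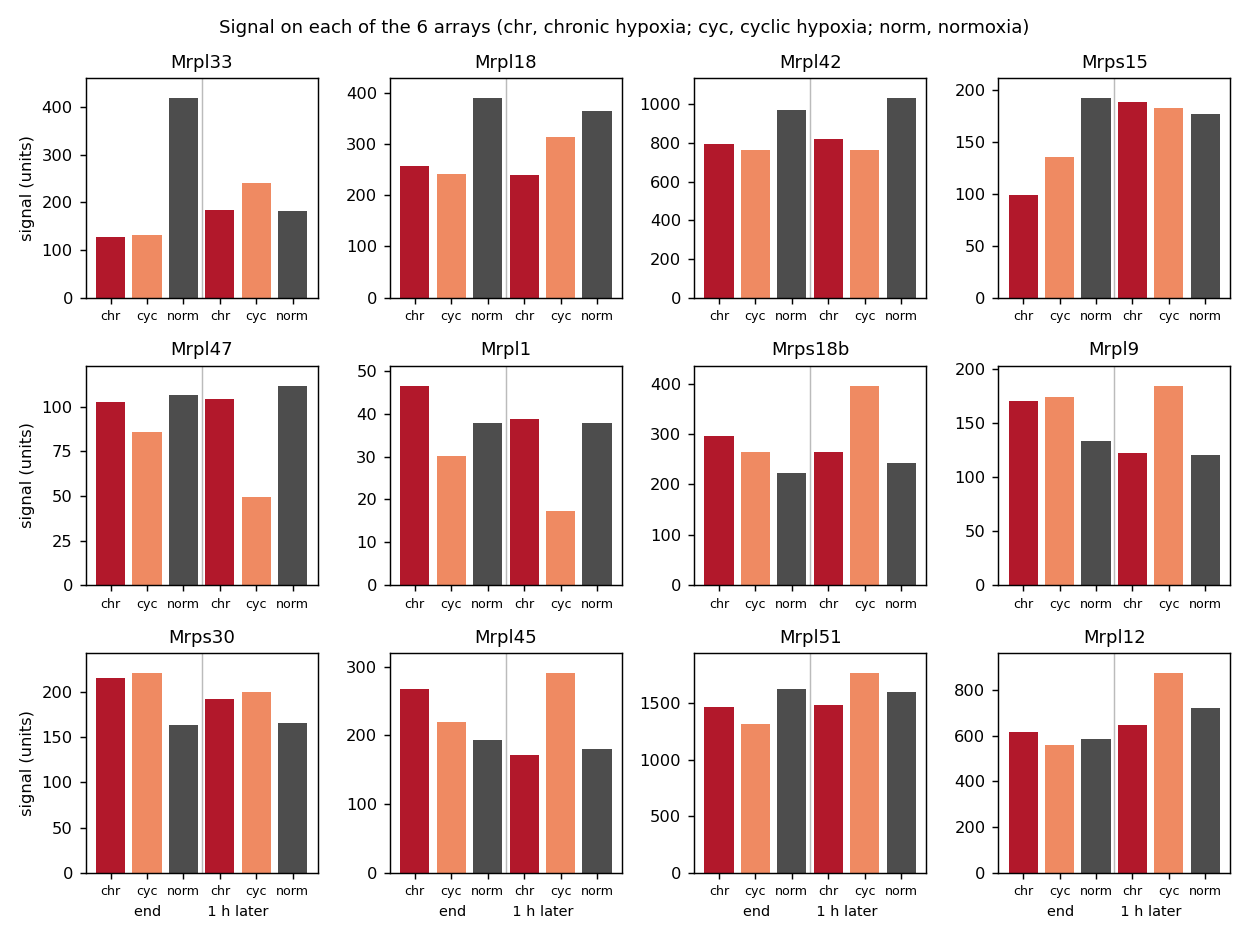
Bars give the signal (units, from 0) on each of the 6 arrays for 12 genes, with chronic hypoxia, cyclic hypoxia and normoxia at the end of the exposure left of the line and 1 h later right of it; each bar is 1 array. Mrpl33 is high on the first normoxia array only, Mrpl42 and Mrpl18 are below both normoxia arrays on all 4 hypoxia arrays, and Mrpl47 and Mrpl1 are low after cyclic hypoxia with reoxygenation.

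Mrpl18 and Mrpl42 were the members with the lowest unadjusted p in mean hypoxia. Mrpl18, homologue of a bacterial protein that binds 5S ribosomal RNA, had 257 units in chronic and 241 in cyclic hypoxia, against 389 in normoxia. At the later collection it had 240 units in chronic and 314 in cyclic hypoxia, against 364 in normoxia. All 4 hypoxia arrays were below both normoxia arrays, and the log2 differences were -0.60, -0.69, -0.60 and -0.21. In mean hypoxia its change was -0.53 (SE 0.18, unadjusted p = 0.0187, adjusted p = 0.458). Mrpl42, a large-subunit protein without a bacterial counterpart, had 797 units in chronic and 765 in cyclic hypoxia, against 973 in normoxia. The later values were 821 units in chronic and 762 in cyclic hypoxia, against 1031 in normoxia. Its differences were even, from -0.44 to -0.29 in the 4 pairs, with a mean of -0.35 (SE 0.12, unadjusted p = 0.0227, adjusted p = 0.468).

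In all, 6 members had every hypoxia array below both normoxia arrays, where 9.72% of all genes did. These were Mrpl42, Mrpl41, Mrps18c, Mrpl18, Mrpl48 and Mrpl47. Every hypoxia array was above both normoxia arrays for 4 members, Mrpl16, Mrps18b, Mrps30 and Mrps6, where 9.11% of all genes were. Set against normoxia of the matching collection, 7 members were below in 4 of 4 pairs (13.0% of all genes) and 5 above (12.5%). Each count was a smaller share of the 74 members than of all genes.

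Mrps15 and Mrpl47 completed the 5 lowest in mean hypoxia. Mrps15, homologue of the bacterial small-subunit protein S15, had 98.6 units in chronic and 135 in cyclic hypoxia, against 192 in normoxia. With 1 h more it had 189 units in chronic and 183 in cyclic hypoxia, against 177 in normoxia. The gene was thus lower in hypoxia at the end (-0.96 and -0.51) and near normoxia after the last hour (0.09 and 0.05) on its brightest probe set. Its second probe set had differences of -0.43 in chronic and -0.15 in cyclic hypoxia at the end, and of -0.40 and -0.04 later, so in chronic hypoxia it was nearly as low at both collections. The mean change on the brightest probe set was -0.33 (SE 0.24, adjusted p = 0.716), and without the first normoxia array it was 0.072.

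Mrpl47, homologue of the bacterial tunnel-exit protein L29, had 103 units in chronic and 86.1 in cyclic hypoxia, against 107 in normoxia. The later signals were 105 units in chronic and 49.2 in cyclic hypoxia, against 112 in normoxia. The array after cyclic hypoxia and reoxygenation was the low one, with a difference of -1.18, and the fitted cyclic change was -0.75 (SE 0.28, adjusted p = 0.276). Mrpl1, homologue of the bacterial L1 stalk protein and named here after its values were seen, showed the same array low, at 17.3 units in cyclic hypoxia and 38.7 in chronic, against 37.8 in normoxia. At the end it had 30.1 units in cyclic and 46.5 in chronic hypoxia, against 38.0 in normoxia. Its second probe set past the filter gave the same difference after cyclic hypoxia with reoxygenation, -1.12. For both genes the other 3 differences from normoxia stayed under 2-fold.

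The 5 highest in mean hypoxia stayed under a 2-fold difference on every pair of arrays, and none passed the test. Mrps18b, one of the paralogues related to bacterial S18, had 296 units in chronic and 265 in cyclic hypoxia, against 222 in normoxia. The later values were 265 units in chronic and 396 in cyclic hypoxia, against 242 in normoxia, and the mean change was 0.38 (SE 0.20, adjusted p = 0.627). Mrps30, a large-subunit protein despite its name, had 216 units in chronic and 221 in cyclic hypoxia, against 164 in normoxia. It then had 193 units in chronic and 200 in cyclic hypoxia, against 166 in normoxia, with a mean change of 0.33 (SE 0.17, adjusted p = 0.628). Both genes had all 4 hypoxia arrays above both normoxia arrays.

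Mrpl45, which helps hold the ribosome to the inner membrane at the exit tunnel, had 267 units in chronic and 219 in cyclic hypoxia, against 193 in normoxia. At the second collection it had 172 units in chronic and 291 in cyclic hypoxia, against 180 in normoxia. Its mean change was 0.32 (SE 0.23, adjusted p = 0.716), with chronic hypoxia below normoxia after the last hour. Mrpl9, homologue of bacterial L9, had a mean change of 0.34 (SE 0.20, adjusted p = 0.651), and its second probe set 0.41. Mrps9, homologue of bacterial S9, had 0.24 (SE 0.19, adjusted p = 0.735), from differences of 0.38 and 0.48 at the end, and near 0 and 0.11 an hour later.

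The 5 brightest members had small mean changes, apart from Mrpl42. Mrpl51, a large-subunit protein without a bacterial counterpart, had 1466 units in chronic and 1319 in cyclic hypoxia, against 1626 in normoxia. At the second collection it had 1490 units in chronic and 1767 in cyclic hypoxia, against 1597 in normoxia. Its mean change was -0.10 (SE 0.13, adjusted p = 0.848). Mrpl27, homologue of a bacterial protein near the peptidyl transferase centre, ranged from 850 to 1061 units over the 6 arrays, with a mean change of 0.02 (SE 0.12, adjusted p = 0.980). Mrpl13, homologue of bacterial L13, ranged from 720 to 880 units with -0.02 (SE 0.15, adjusted p = 0.984), and Mrpl17, homologue of bacterial L17, from 608 to 918 units with 0.01 (SE 0.17, adjusted p = 0.989).

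Mrpl12 encodes the L7/L12 stalk protein, which recruits translation factors. It had 615 units in chronic and 557 in cyclic hypoxia, against 585 in normoxia. The later signals were 644 units in chronic and 872 in cyclic hypoxia, against 719 in normoxia, and its mean change was 0.03 (SE 0.16, adjusted p = 0.970). Mrps12, homologue of the bacterial decoding-centre protein S12, had a mean change of -0.09 (SE 0.16, adjusted p = 0.895). Mrpl28, homologue of bacterial L28, had 0.05 (SE 0.17, adjusted p = 0.958), and Mrpl41, a large-subunit protein without a bacterial counterpart, -0.28 (SE 0.17, adjusted p = 0.658).

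After reoxygenation most of the family had a higher signal on the cyclic than on the chronic array. The median difference, cyclic minus chronic, was 0.30 with 58 of 74 genes above 0, against 0.05 and 54.5% for genes of 100 units or more. With median centring the median was 0.49 with 64 of 74 above 0, and all genes had 0.19. At the end of the exposure the cyclic minus chronic median was -0.06, with 29 of 74 above 0. No member was then 2-fold apart between the regimes, where 1.23% of all genes were higher and 3.76% lower in cyclic hypoxia. After reoxygenation the genes highest in cyclic relative to chronic hypoxia were Mrps18a (0.85), Mrps16 (0.78), Mrpl20 (0.78) and Mrpl45 (0.76), chosen after their values were seen. Mrps16, homologue of bacterial S16, had 348 units in cyclic and 202 in chronic hypoxia at that later collection, against 337 in normoxia. No member was 2-fold higher in cyclic than in chronic hypoxia after reoxygenation, and 2 were 2-fold lower. Of all genes 2.50% were higher and 12.6% lower in that pair of arrays. In the fit over both collections, the cyclic minus chronic median was 0.12 with 51 of 74 above 0, and Mrpl20 had the highest change, 0.62 (SE 0.18, adjusted p = 0.240). That median turned to -0.03 with 32 above 0 without the cyclic reoxygenation array, and to -0.04 with 31 above 0 without the chronic reoxygenation array. It was 0.26 without either hypoxia array of the end of exposure, with 57 above 0 when the cyclic and 58 when the chronic array was left out.

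**Figure D3:**
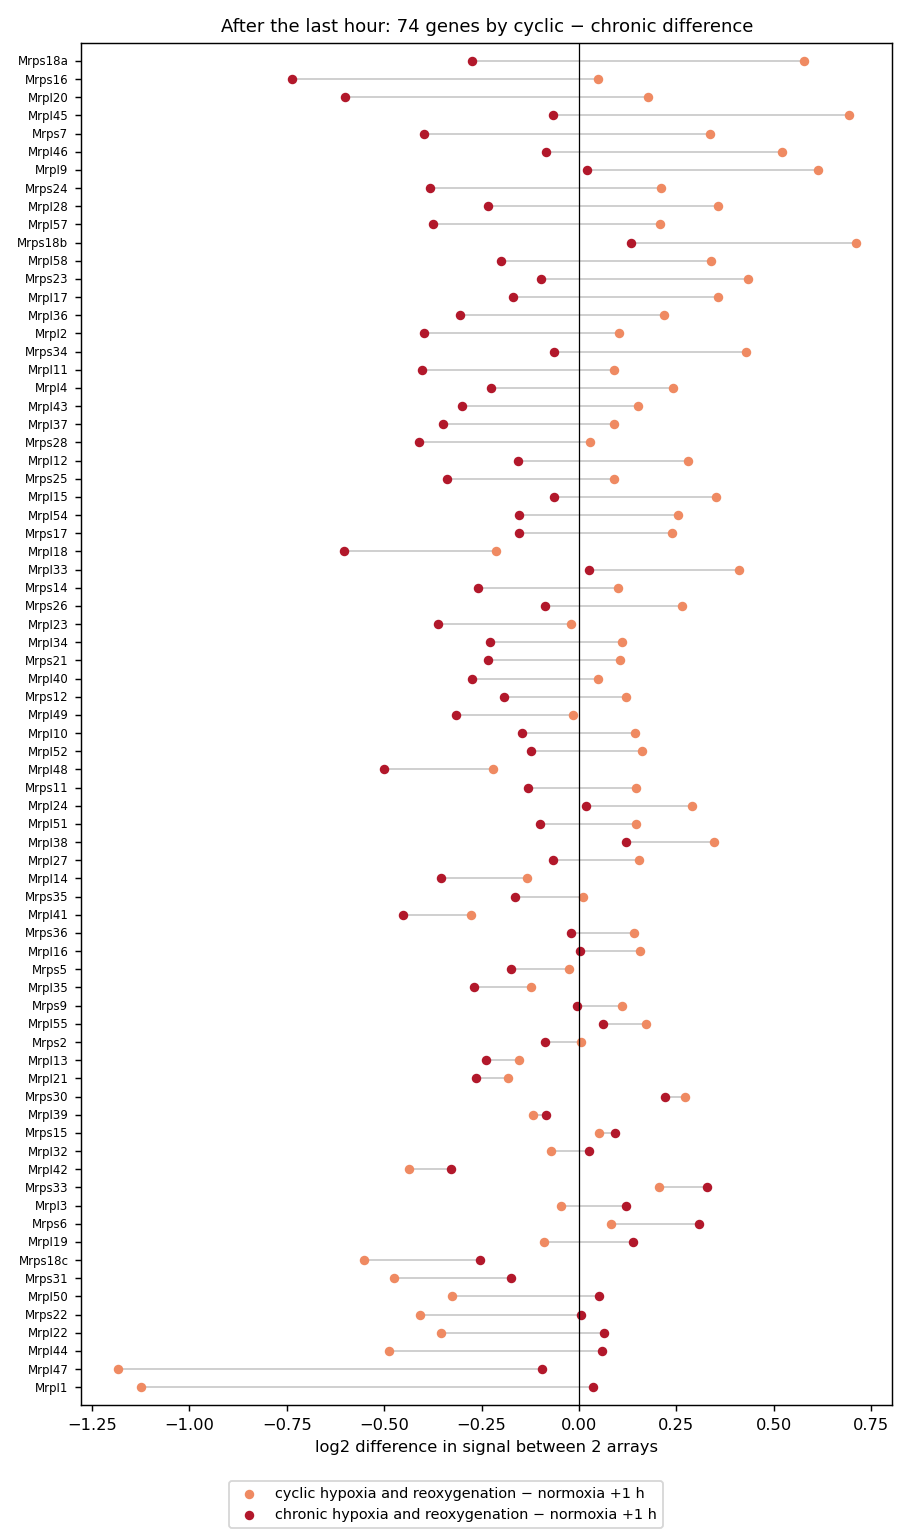
For each of 74 genes, ordered by the difference between them, the log2 difference from normoxia after the last hour is shown for cyclic (orange) and chronic hypoxia (red), both against the same normoxia array. The cyclic point lies right of the chronic point for 58 of 74 genes, and the exceptions include Mrpl1 and Mrpl47 at the bottom.

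The array after cyclic hypoxia with reoxygenation held the highest signal of the 6 for 40 of 74 members (54.1%), against 31.5% of genes of 100 units or more, and the lowest for 9 (12.2%), against 28.0%. The array after chronic hypoxia with reoxygenation held the lowest for 22 (29.7%), against 18.4%. The cyclic array at the end held the lowest for 20 (27.0%), against 14.5%. Within cyclic hypoxia the second collection exceeded the first by a median of 0.25, with 58 of 74 above 0, or 67 with median centring. All genes had a median of 0.016 in that pair of arrays, and 0.19 with median centring. Above the median of all genes lay 57 of 74, a count that centring could not change, and 54 under quantile normalization. Within chronic hypoxia the second minus first median was -0.13 with 26 of 74 above 0, and within normoxia 0.09 with 55 above 0. All genes had medians of -0.015 within chronic hypoxia and 0.0085 within normoxia. The array with most of the highest signals was also the one with the lowest correlation with the others and the lowest median signal, and the part of these in the result was not tested.

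**Figure D4:**
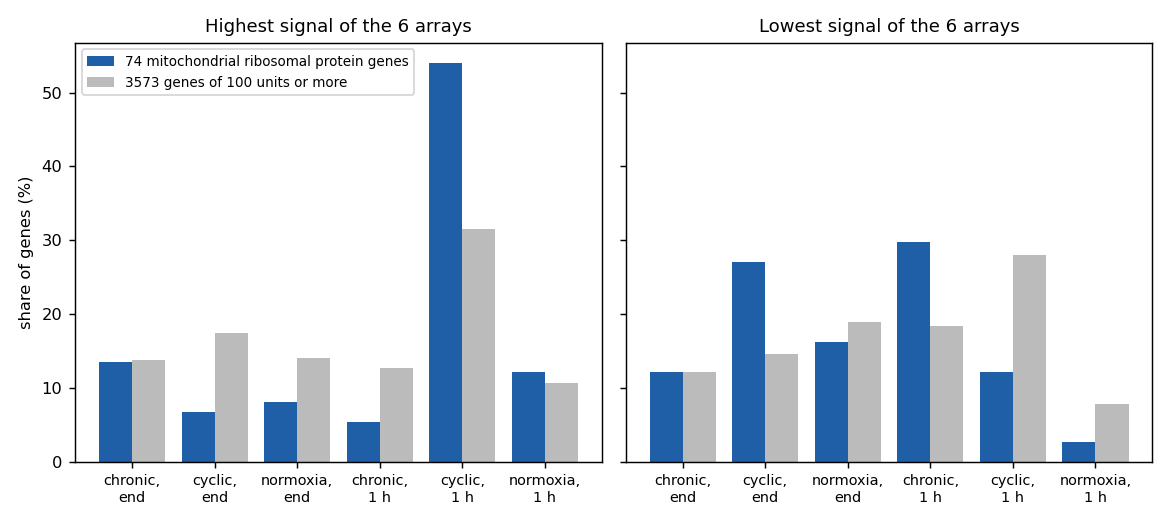
Bars give, for each array, the share (%) of the 74 mitochondrial ribosomal protein genes (blue) and of 3573 genes of 100 units or more (grey) that have their highest (left) or lowest (right) signal there. The blue bar for the highest signal reaches 54.1% after cyclic hypoxia with reoxygenation, against 31.5% for the grey bar. Of the 74 genes 7 averaged under 100 units.

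Other genes of mitochondrial translation were read from lists chosen with earlier results known, and in mean hypoxia none of their genes passed an adjusted p under 0.05. Of 5 mitoribosome proteins with other names, 4 were measured, with a median change of 0.08. Dap3, a small-subunit GTP-binding protein, had 362 units in chronic and 427 in cyclic hypoxia, against 301 in normoxia. It then had 261 units in chronic and 415 in cyclic hypoxia, against 320 in normoxia, with a mean change of 0.21 (SE 0.18, adjusted p = 0.755). The pentatricopeptide protein gene Ptcd3 had the lowest change of these, -0.17.

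Of 14 translation factors 7 were measured, with a median of -0.32 and 2 above 0. Tufm, the elongation factor that brings aminoacyl-tRNA to the ribosome, had -0.40 (SE 0.23, adjusted p = 0.652), Mrrf, the recycling factor, -0.41, and Gfm2, an elongation factor G homologue that acts in recycling, 0.17. Of 17 mitochondrial aminoacyl-tRNA synthetases 8 were measured, with a median of 0.00, from -0.31 for Rars2 to 0.80 for Ears2, which averaged only 10.7 units. Of 24 assembly factors 18 were measured, with a median of 0.03, between the rRNA methyltransferase genes Mrm2 (-0.68) and Mrm1 (0.37). For the inner-membrane insertases Oxa1l and Cox18 the changes were 0.05 and -0.13.

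Of 19 genes for mitochondrial transcription and RNA handling 16 were measured, with a median of -0.21 and 2 above 0, or -0.15 and 5 above 0 with median centring. The mitochondrial RNA polymerase gene Polrmt had -0.54 (SE 0.24, adjusted p = 0.570) and the DNA-packaging factor gene Tfam -0.18 (SE 0.22, adjusted p = 0.841). The list ran from -0.98 for Mterf2 to 0.15 for Elac2, which encodes a tRNA-processing nuclease. Mterf2 had 22.8 units in chronic and 16.3 in cyclic hypoxia, against 29.1 in normoxia, and then 23.4 in chronic and 5.69 in cyclic hypoxia, against 29.8 in normoxia.

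All 9 regulators of mitochondrial biogenesis were measured, with a median of 0.11. The coactivator genes Pprc1 (0.45), Ppargc1b (-0.91) and Ppargc1a (-0.84) differed in sign, and Nrf1, the factor whose letters are shown above, had 0.39. Myc had 109 units in chronic and 92.0 in cyclic hypoxia, against 78.5 in normoxia, and after 1 h more 197 units in chronic and 35.0 in cyclic hypoxia, against 91.0 in normoxia. Myc and Ppargc1b were thus lowest after cyclic hypoxia with reoxygenation, with Ppargc1b at 10.9 units there, 71.5 in chronic hypoxia and 54.0 in normoxia. Low signals were common on that array. It held the lowest signal for 28.0% of the 3573 brighter genes compared above, and the highest for 31.5%. Of all genes, 10.6% were 2-fold lower than normoxia there and 3.56% higher. The 9 regulators had a median difference of -0.30 in that pair of arrays, with 3 above 0. A link between these regulators and the ribosomal protein genes was not tested.

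The nuclear genes of the respiratory chain and ATP synthase, 36 measured of 37, had a median of 0.08 with 26 above 0, which became -0.01 with 17 above 0 under quantile normalization. Atp5a1, of ATP synthase, was highest (0.30) and Ndufs7, of complex I, lowest (-0.16). In cyclic minus chronic hypoxia after the last hour their median was 0.23 with 27 of 36 above 0, beside 0.30 and 58 of 74 for the ribosomal proteins. The cytosolic ribosomal proteins, 42 measured of 76, had a mean hypoxia median of 0.21 with 41 above 0, from -0.18 for Rpl37 to 0.80 for Rps27. Under quantile normalization it was 0.02 with 26 above 0. In cyclic minus chronic hypoxia after the last hour their median was -0.05 with 13 of 42 above 0, and 0.14 with 38 above 0 under median centring.

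**Figure D5:**
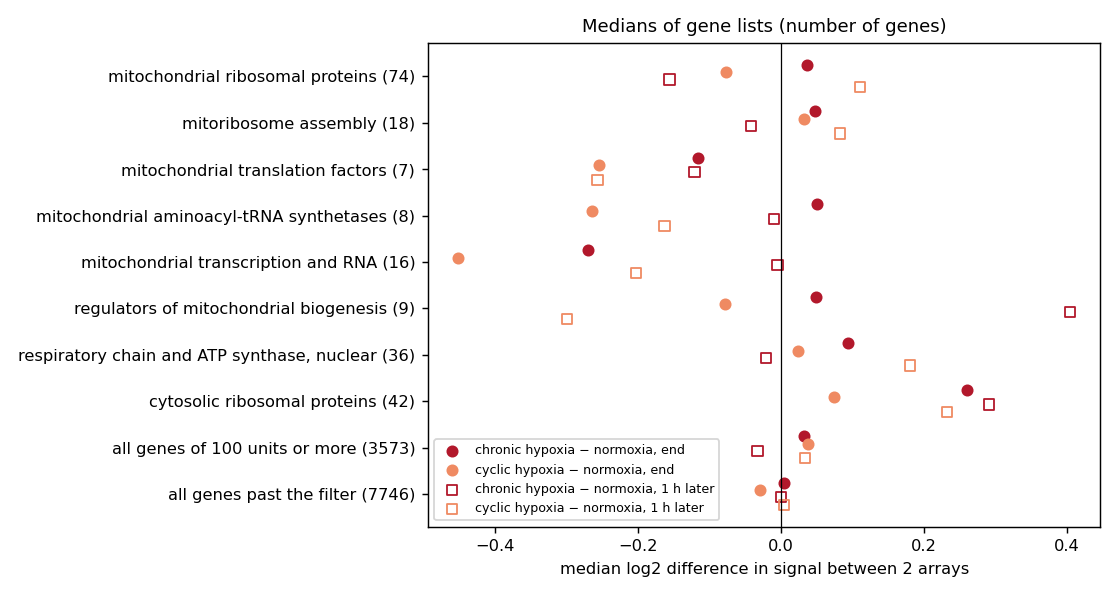
Points give the median log2 difference from normoxia of each gene list (number of genes measured in brackets) in the 4 hypoxia arrays, filled at the end of the exposure and open 1 h later. The mitochondrial ribosomal proteins lie at 0.04 and -0.08 at the end and at -0.16 and 0.11 later, with genes of 100 units or more between -0.03 and 0.04.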

How the data were processed

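The values are the intensity signals deposited by the authors on a linear scale, 1 column per array, made with GCOS per the submitters' processing notes, whose version and algorithm are not given in the sources used here. Values under the 20th percentile (2.10 units) were set to it before log2, and those averaging less than the 40th percentile of the mean signals (8.33 units) were dropped, with 64 control probe sets. Genes were named from GEO's platform annotation and updated through Entrez identifiers. The R package limma (3.58.1, R 4.3.3) fitted each model with an intensity trend, two-sided, with Benjamini-Hochberg adjustment over 13556 probe sets at 0.05. The additive fit held regime and collection, the other fit hypoxia at each collection, each with 2 residual degrees of freedom. Both were run on simulated data with independent noise on each array and the same shift on all hypoxia arrays. That simulation does not cover an array that stands apart or a change that differs between arrays. Single pairs of arrays were described without a test. The members and 22 gene lists (313 genes, 245 with a probe set of their own) were chosen with earlier results of these data known. Named members were those called, those 2-fold or more from normoxia in both hypoxia arrays of a collection (in any hypoxia array if of 100 units or more), the 5 highest and 5 lowest in mean hypoxia, the 5 brightest, any with probe sets 1 or more apart on the log2 scale in mean hypoxia (there were none), and Mrpl33, Mrpl12, Mrpl28, Mrps12, Mrpl41 and Mrps30. Of other lists the highest and lowest were named, with Dap3, Tufm, Tfam, Polrmt, Ppargc1a, Pprc1, Nrf1, Myc and Hk2. Alternatives were quantile normalization, median centring, a floor at the 10th percentile (0.738 units), no filter, no intensity trend, the mean of a gene's probe sets, and leaving out each array. Sequences were matched by gene identifier.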

Additional observations from a re-analysis of the deposited data

Results flagged for a closer look

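The members described by name whose hypoxia arrays all moved one way in one collection or regime and the other way in the other were these 7. For Mrpl33 the log2 difference from normoxia after the last hour exceeded that at the end by 1.91, and in limma's fit that difference had an adjusted p of 1.00. For Mrps15 it exceeded it by 0.81 (adjusted p = 1.00), and for Mrpl13 the difference was -0.36 (adjusted p = 1.00), with Mrpl13 above normoxia at the end and below it later. Mrpl28 was above normoxia in both cyclic arrays and below it in both chronic arrays, with a cyclic minus chronic change of 0.37 in the additive limma fit (adjusted p = 0.428). The same held for Mrpl27 (0.15, adjusted p = 0.671) and Mrpl20 (0.62, adjusted p = 0.240). Mrpl1 was below normoxia in both cyclic arrays and above it in both chronic arrays (-0.90, adjusted p = 0.275). Of all 74 members 9 had opposite directions at the collections, where 15.5% of all genes did. In limma's fit 0 of the 74 passed an adjusted p under 0.05 for that difference, and the share of all probe sets was not counted.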

How the results depend on the processing

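With 6 arrays and 1 per group, differences of dim genes and of single arrays are the least certain. Of 216 values for the named members under the alternatives, 196 kept their direction. The lower floor, no filter and no intensity trend could not change these values, so their part of that count was fixed in advance. Median centring gave medians of 0.30 in cyclic hypoxia after the last hour, 0.49 for cyclic minus chronic hypoxia then and 0.43 for the last hour within cyclic hypoxia, and moved Mrpl13 to 0.033 in mean hypoxia. The members 2-fold lower numbered 2 in chronic hypoxia at the end under quantile normalization, and 2 in cyclic hypoxia at the end with the mean of probe sets. In cyclic hypoxia after the last hour they numbered 0 with median centring and 1 with quantile normalization. The share of all genes 2-fold lower was not counted under these settings. In that last pair the median of all genes was 0.19 with median centring and 0.06 with quantile normalization, against 0.0044 in the main setting. Quantile normalization moved Mrpl17 to -0.0023 and Mrpl27 to -0.0058. Leaving out 1 array at a time left a group with a single array, so only sizes of change are given from those fits. In those fits 1 array stands for a group and is assumed to vary like the others. Left-out arrays gave mean hypoxia ranges that crossed 0 for Mrpl33 (-1.69 to 0.22), Mrps15 (-0.74 to 0.072), Mrpl12 (-0.084 to 0.15), Mrpl13 (-0.20 to 0.16), Mrpl17 (-0.14 to 0.16), Mrpl27 (-0.016 to 0.052), Mrpl28 (-0.038 to 0.13), Mrpl51 (-0.23 to 0.022) and Mrps12 (-0.20 to 0.015). Mrpl33 and Mrps15 crossed it without the first normoxia array. Others kept their sign but moved by over 1.5 times: Mrps9 (0.054 without the first normoxia array, 0.43 without the second), Mrpl45 (0.12 without the chronic end or the cyclic reoxygenation array, 0.51 without the cyclic end array and 0.52 without the chronic reoxygenation array), Mrps18b (0.25 without the chronic end array and 0.23 without the cyclic reoxygenation array), Mrpl41 (-0.17 without the chronic reoxygenation array) and Mrpl47 (-0.18 without the second normoxia array, -0.20 without the cyclic reoxygenation array, -0.64 without the first normoxia array and -0.62 without the cyclic end array). The cause was not tested. No paired analysis was possible because each group has 1 array, so replicate numbers pair nothing beyond the collection, which the additive fit already held as a term. The fit of hypoxia at each collection could not be made without a normoxia array.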

Other observations

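Other probe sets of some members differed from the brightest one. Mrpl13 was at 857 units in chronic and 753 in cyclic hypoxia, against 720 in normoxia, on its brightest probe set at the end of the exposure. A second probe set gave 199 units in chronic and 194 in cyclic hypoxia, against 313 in normoxia, and another 78.1 units in chronic and 74.5 in cyclic hypoxia, against 135 in normoxia. Mrpl28 had 256 units in chronic and 285 in cyclic hypoxia, against 264 in normoxia, and its dimmest probe set past the filter 113 units in chronic and 159 in cyclic hypoxia, against 188 in normoxia. For Mrpl48 the differences in cyclic hypoxia at the end were -0.04 on the brightest and -1.03 on the other probe set. Between the normoxia arrays, the second minus the first, these other probe sets differed by -0.28 and -0.88 for Mrpl13, -0.90 for Mrpl28 and -0.66 for Mrpl48. In cyclic hypoxia after the last hour Mrpl51 had 0.15 on its brightest probe set and -1.06 on one averaging 36.4 units. Mrpl57 had 0.21 on its brightest and -1.35 on one averaging 21.4 units. By contrast, second probe sets kept the direction for Mrpl9 (0.61 and 0.60) and Mrps23 (0.43 and 0.52). These were chosen after their values were seen.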
